A study of Homo sapiens with 2 samples.

Results

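Tetraspanins were taken as the genes named TSPAN with a number, together with CD9, CD37, CD53, CD63, CD81, CD82, CD151, the uroplakins UPK1A and UPK1B and the photoreceptor proteins PRPH2 and ROM1. The array carried 60 probe sets for 32 such genes, of 54675 probe sets in all and 19775 genes that had a probe set of their own. The family was singled out because TSPAN32 was known from these same arrays to be among the genes with the largest increase, so its values are a description and support nothing by themselves. Messenger RNA was measured on Affymetrix arrays in K562, an established human erythroleukemia line, which was nucleofected (given nucleic acid by an electrical pulse) with 3 µg of a synthetic mimic. The treated culture received a miR-34a mimic, the other a control mimic without homology to human genes, and RNA was taken 24 hours later from each. There was 1 array per group, so no value below has a replicate and no test between groups was possible.

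Tetraspanins are small proteins that cross the membrane several times and carry a short and a long extracellular loop. They bind each other and other membrane proteins, among them integrins, immunoglobulin superfamily proteins and the protease ADAM10, and so gather them into patches of the plasma membrane and of secreted vesicles. Blood cells use them in adhesion, signalling and platelet function. MicroRNAs such as miR-34a pair with messenger RNAs chiefly through the seed, bases 2 to 8 of the mature strand, and lower the amount or the translation of the RNA. The mature strand of miR-34a is shown with its seed in capitals because it is the agent that set the cultures apart (RefSeq, GRCh38.p14, minus strand).

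hsa-miR-34a-5p: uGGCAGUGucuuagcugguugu

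Signals are the deposited linear values in arbitrary units. The log2 ratio of a gene is log2(signal + 14.9) on the miR-34a array less that on the control array, with the median of all expressed genes set to 0, and it understates the change of dim genes. A gene counted as expressed where a probe set had a mean log2 level at or above the median of the array, about a signal of 39.0, and took the value of its brightest such probe set. Signals up to 75.4, the highest value among 27 dim bacterial control probe sets, are called within background. The median signal was 39.5 with the control mimic and 40.1 with miR-34a. The 3′ to 5′ signal ratio, which grows as RNA degrades, was 3.07 and 3.53 for GAPDH and 4.30 and 4.54 for ACTB, and the part of this difference in the results was not tested. The erythroid markers of K562 were present: of 10 listed genes 7 had a probe set of their own, and all 7 were expressed and above background. HBZ, an embryonic globin gene, and EPOR, the erythropoietin receptor gene, were the highest of them at 0.84 and 0.50, and TFRC, the transferrin receptor gene, and KLF1 the lowest at -0.12 and 0.096. The other expressed EPOR probe sets disagreed, at 0.36, 0.20 and -0.084. Of the 7 genes 6 lay above 0, against 50% of all expressed genes, and their median was 0.19. The array does not read the mimic itself.

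Among the 16 of 32 tetraspanin genes that were expressed, TSPAN32 was the only member at least 2-fold higher with miR-34a, and no member was at least 2-fold lower. With no filter on level the count was 3, with TSPAN7 and TSPAN8 added from signals within background. The share of genes expressed was 64.6% over the whole array. Over all 12774 expressed genes, 0.595% passed 2-fold upward and 0.548% downward. At 1.5-fold TSPAN32 was still the only member higher, with 3.28% of all expressed genes past that size. The other expressed members lay between -0.72 and 0.54 on the log2 scale, and 14 of the 16 were within 1.5-fold. The share within 1.5-fold over all expressed genes was 93.7%. The 12 members above background on both arrays all lay within 1.5-fold, as did 94.4% of such genes on the array. The family divided almost evenly in direction, with 9 members above 0 and 7 below, and 50% of all expressed genes lay on each side by the centring. The median log2 ratio of the 16 members was 0.094 (-0.011 over all 32 with no filter), and the SD over members was 0.57, or 0.31 without TSPAN32. The SD over all expressed genes was also 0.31.

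**Figure D1:**
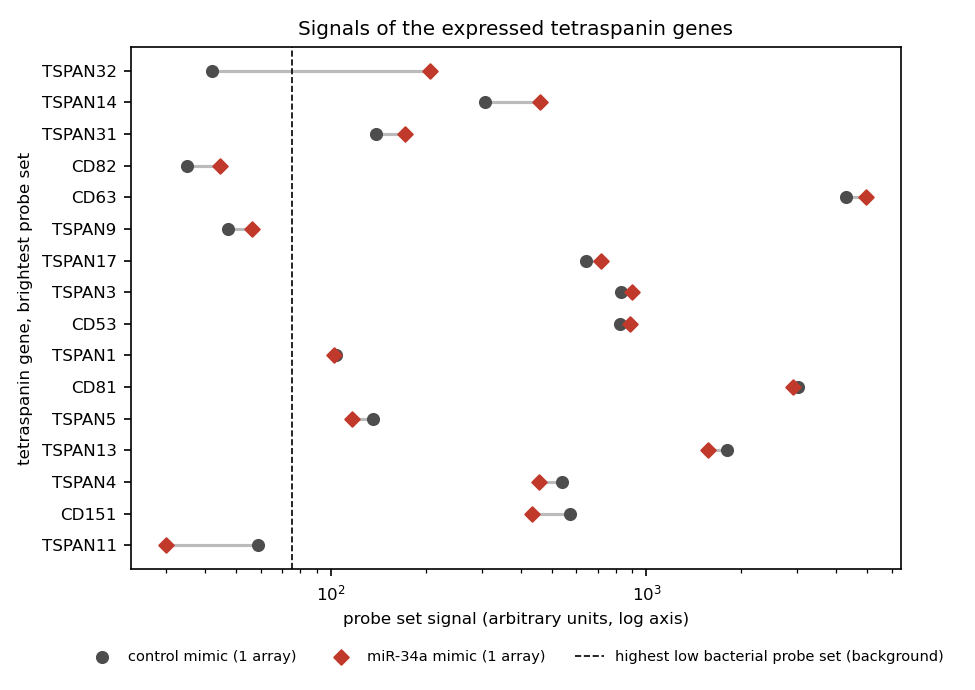
Signal of the brightest expressed probe set of each of the 16 expressed tetraspanin genes, in arbitrary units on a log axis, with 1 array for the control mimic (circles) and 1 for the miR-34a mimic (diamonds). TSPAN32 crosses the dashed line at 75.4, the highest bacterial control of low signal, from 41.9 to 206, while the pairs of points of most other genes lie close together.

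TSPAN32, also called PHEMX or TSSC6, is a tetraspanin of blood cells that has been linked to signalling of the platelet integrin and to T cell proliferation. Its brighter probe set, 220558_x_at, read 41.9 with the control mimic and 206 with miR-34a, a log2 ratio of 1.95. The other, 233467_s_at, read 23.1 and 86.5, a log2 ratio of 1.41. Both control signals were within background and both miR-34a signals above it, so the gene went from a level that the array did not separate from background to a measurable one. Set against the background signal of 75.4 in place of the control signal, the brighter probe set was at least 2.73-fold higher and the dimmer one at least 1.15-fold higher. In RNA of a whole culture, more RNA in each cell and more cells with the RNA cannot be told apart.

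Both TSPAN32 probe sets belong to classes (_x_at and _s_at) whose probes can match more than a single transcript, and the gene has none of the more specific class. Among megakaryocyte markers, ITGA2B and ITGB3 were the highest, just under 1 and at 0.54, and GP9 and PF4 the lowest at -0.29 and -0.22. Of these, ITGA2B alone read above background. A second expressed probe set of ITGA2B, 206494_s_at, read 34.7 and 132.7, a log2 ratio of 1.56, from within background to above it as both TSPAN32 probe sets did. Of the 6 genes listed, 5 were expressed, 2 of these above 0 and 3 below, and 4 read within background on both arrays; only ITGA2B did not. Over all probe sets of the 6 genes, signals lay between 1.09 and 163 with the control mimic and between 1 and 344 with miR-34a. They summed to 599 and 913. Most of that difference came from ITGA2B, so the sums do not describe the marker list as a whole. The part of these genes in the TSPAN32 result was not tested.

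**Figure D2:**
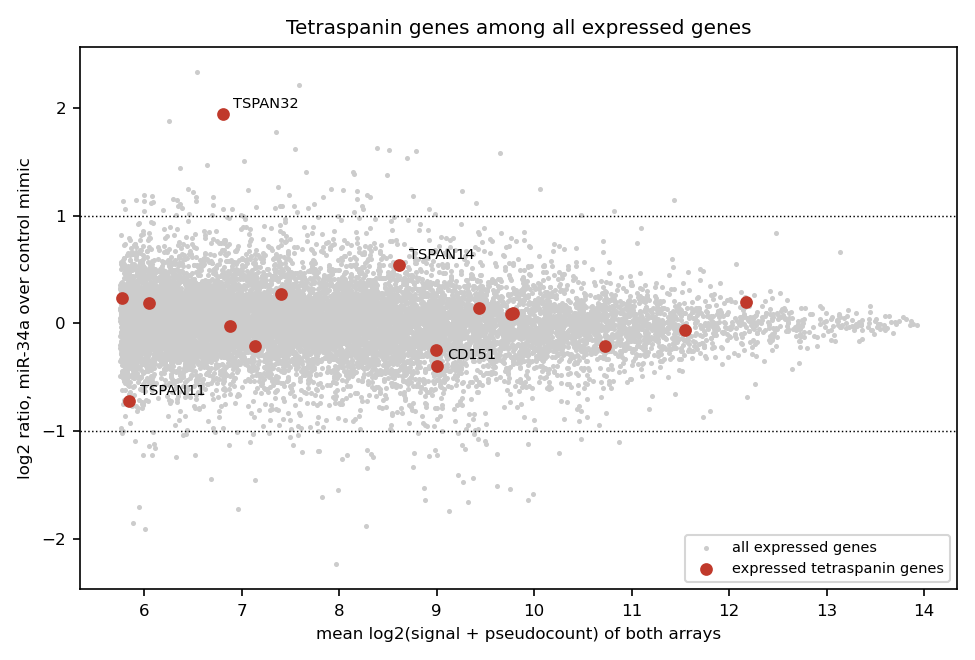
Log2 ratio of miR-34a over control mimic (y axis) against the mean log2(signal + pseudocount) of both arrays (x axis) for the 12774 expressed genes in grey and the 16 expressed tetraspanin genes in red, with dotted lines at 2-fold. TSPAN32 lies at 1.95 near the upper edge, and the remaining members lie between -0.72 and 0.54.

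The next gene on the chromosome showed a like change. In the RefSeq gene table TSPAN32 overlaps C11orf21, a gene of unclear function. C11orf21 read 74.0 and 400.3 on probe set 220560_at, a log2 ratio of 2.22, also from within background. Its second probe set, 1568978_s_at, read 15.1 and 24.0, within background on both arrays. Whether the probe sets of this overlapping pair read separate transcripts was not tested. On its far side ASCL2, a transcription factor gene, was within background on both arrays at 1 and 3.58 and at 31.9 and 23.9. In the other direction stood CD81-AS1, an antisense RNA gene, at 24.0 and 36.7 and likewise within background. The tetraspanin gene CD81 came next, and it read 3028 and 2921, a log2 ratio of -0.061. Beyond CD81, TSSC4 had -0.14 from 324 and 296, and TRPM5, an ion channel gene, read 1 and 1.51. The large changes of this stretch were thus read at TSPAN32 and C11orf21, and the bright neighbours CD81 and TSSC4 stayed within 1.5-fold.

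TSPAN31 stayed within 1.5-fold beside a neighbour that was lower. It is a tetraspanin gene found through its amplification in sarcomas, and it overlaps CDK4, the kinase gene of the G1 phase that is a known target of miR-34a. CDK4 went from 1743 to 573, a log2 ratio of -1.59 on its probe set. TSPAN31 read 138.8 and 172 on 203227_s_at, a log2 ratio of 0.27, and 94.9 and 86.1 on 203226_s_at, a log2 ratio of -0.13. Its probe sets therefore lay on either side of 0, and neither shared the size of the CDK4 decrease. MARCHF9, a ubiquitin ligase gene beyond CDK4, had 0.11 on a probe set above background and -0.98 on another that read 68.7 and 27.8, within background. On the other side AGAP2 and AGAP2-AS1 were within background on both arrays, with no signal over 40.7.

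**Figure D3:**
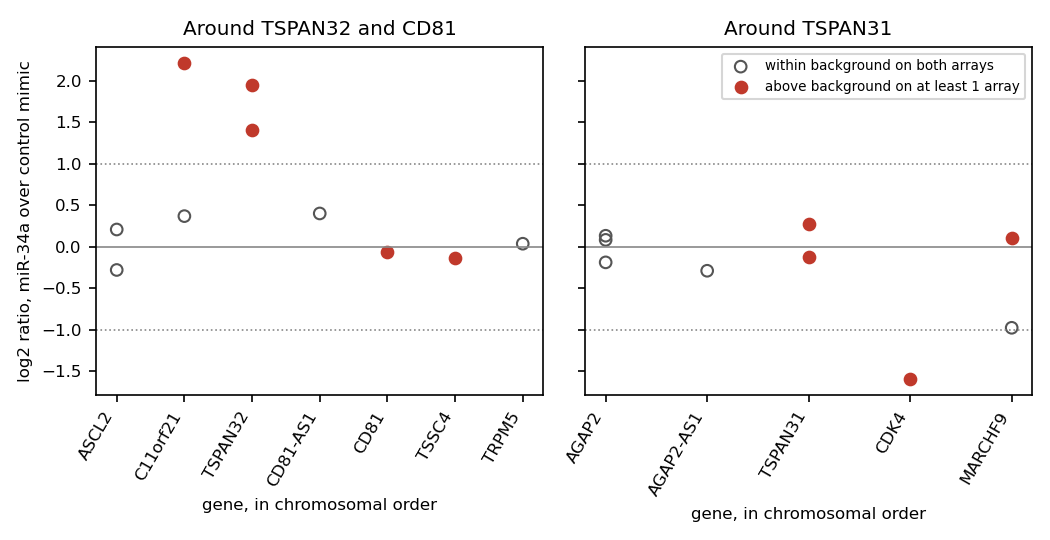
Log2 ratio of each probe set (y axis) for the genes beside TSPAN32 and CD81 (left) and beside TSPAN31 (right), in chromosomal order on the x axis; filled points read above background on at least 1 array and dotted lines mark 2-fold. TSPAN32 (1.95 and 1.41) and C11orf21 (2.22) are high next to CD81 at -0.061, and CDK4 at -1.59 is low next to TSPAN31 at 0.27 and -0.13.

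Promoter windows are shown for C11orf21, since it overlaps TSPAN32, the tetraspanin gene with the largest change. The sequences used here held no window for TSPAN32 itself, so its promoter is not described. Windows are also shown for TSPAN31 and CDK4, the overlapping pair in which CDK4 alone was at least 2-fold lower. Each holds 250 bases before to 50 bases after the start of the gene, 5′ to 3′ on the strand of the gene, from RefSeq on GRCh38.p14. C11orf21 is on the minus strand at chr11:2303091-2303390, TSPAN31 on the plus strand at chr12:57744789-57745088 and CDK4 on the minus strand at chr12:57752261-57752560. Capitals mark matches, on either strand, to GATAA (the core read by GATA factors), AGGAAG (read by ETS factors) and CCNCACCC (a CACCC box, read by KLF factors).

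C11orf21: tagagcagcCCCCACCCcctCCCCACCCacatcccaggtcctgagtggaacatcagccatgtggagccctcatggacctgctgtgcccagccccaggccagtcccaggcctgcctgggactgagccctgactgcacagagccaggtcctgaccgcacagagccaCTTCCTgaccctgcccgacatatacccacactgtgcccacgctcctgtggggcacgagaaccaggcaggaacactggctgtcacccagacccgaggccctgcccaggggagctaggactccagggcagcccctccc

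TSPAN31: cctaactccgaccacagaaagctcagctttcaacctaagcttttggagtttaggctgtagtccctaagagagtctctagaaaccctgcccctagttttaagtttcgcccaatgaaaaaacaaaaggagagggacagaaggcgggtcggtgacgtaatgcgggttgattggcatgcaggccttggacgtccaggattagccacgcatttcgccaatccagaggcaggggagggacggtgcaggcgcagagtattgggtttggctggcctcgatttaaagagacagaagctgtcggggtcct

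CDK4: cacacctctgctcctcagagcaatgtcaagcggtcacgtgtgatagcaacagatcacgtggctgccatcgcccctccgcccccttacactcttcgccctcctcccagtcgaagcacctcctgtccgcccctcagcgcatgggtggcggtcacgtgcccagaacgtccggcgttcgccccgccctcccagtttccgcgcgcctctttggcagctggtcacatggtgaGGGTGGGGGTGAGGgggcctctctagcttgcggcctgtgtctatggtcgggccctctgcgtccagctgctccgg

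The C11orf21 window held 1 match to AGGAAG, on the reverse strand at bases 165 to 170, and 2 to CCNCACCC, at bases 10 to 17 and 21 to 28. The CDK4 window held 2 matches to CCNCACCC on the reverse strand, at bases 227 to 234 and 233 to 240, which overlap. The TSPAN31 window held no match to these letters. Of all 35116 windows of the same length, 33.6% held AGGAAG, 18.3% CCNCACCC and 22.7% GATAA. The table had 45 windows for 25 of the tetraspanin genes, several genes having more than 1, and of these windows 40% held AGGAAG, 33.3% CCNCACCC and 15.6% GATAA. By gene, 10 of the 25 had a window with AGGAAG, 8 with CCNCACCC and 7 with GATAA. The 18 windows with AGGAAG came from 10 genes and the 15 with CCNCACCC from 8, since a gene can have several. Shares by gene over all genes were not counted, so neither these counts nor the window shares are read as a trait of the family. The median GC content was 62.3% in the tetraspanin windows and 58.7% in all windows, and its part in these shares was not tested. All matches named here are matches of letters and not sites shown to be bound.

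Of the 5 tetraspanins that mark secreted vesicles or occur in most tissues, 3 were above background, and these lay within 1.5-fold. CD63, a tetraspanin of late endosomes, lysosomes and platelet granules, read 4282 and 4956, a log2 ratio of 0.20. CD81, a partner of the B cell receptor complex and of integrins, was at -0.061 as given above. CD151, which binds the laminin-binding integrins, went from 571 to 434, a log2 ratio of -0.39, the lowest of the members above background on both arrays. CD82, known as a suppressor of metastasis, read 35.1 and 44.4 on its brightest probe set, and CD9, a tetraspanin of platelets, exosomes and the egg membrane, had 3 probe sets with no signal over 33.2. CD82 and CD9 were thus within background throughout, and their ratios are not interpreted.

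Of the tetraspanins typical of leukocytes, CD53 was measured at a clear signal, and CD37 and TSPAN2 were not. CD53, a tetraspanin of most white blood cells, read 826 and 886 on its brightest probe set, and a dimmer one above background read 102 on each array. The log2 ratios were 0.091 and -0.0047, so CD53 lay close to 0. Its remaining probe set read 24.9 and 9.51, within background. CD37, mainly of B cells, read at most 22.1 on either of its 2 probe sets. TSPAN2, of glia and leukocytes, read at most 27.5 over 3 probe sets. Few of the listed lymphocyte and myeloid markers were measured. Of 6 lymphocyte markers 1, CD79A, was above background, at 0.040, and the other expressed one, MS4A1, was within it at 0.48. The other CD79A probe set, 205049_s_at, read 5.14 and 8.29, within background. That list leaves out CD3D, a T cell receptor component gene named here after its value was seen, which read 953.6 and 351.9, a log2 ratio of -1.41. Of 5 myeloid markers LYZ and CSF1R were above background on at least 1 array, at 0.11 and -0.14. The other LYZ probe set read 19.6 and 1, and CSF1R passed background on the control array alone, at 77.8.

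The TspanC8 subgroup comprises the tetraspanins that bind ADAM10 and guide its traffic and its choice of substrate. Of its 6 genes, TSPAN5, TSPAN14 and TSPAN17 were above background, and TSPAN10, TSPAN15 and TSPAN33 were within background on both arrays. TSPAN14 had the second largest log2 ratio of the 16 expressed members, 0.54, with signals of 308 and 458 on 223314_at. Its other probe set, 221002_s_at, read 146 and 139, a log2 ratio of -0.075, so the probe sets disagreed. TSPAN17 read 643 and 716, a log2 ratio of 0.14. TSPAN5 read 136 and 117 on its brightest probe set, a log2 ratio of -0.20. On 225388_at it read 52.8 and 88.4, a log2 ratio of 0.60. The direction of TSPAN5 thus depends on the probe set, and the remaining one at 22.9 and 43.3 was within background. TSPAN33, known from red cell precursors, read 8.09 and 6.98 in this erythroid line. Neither TSPAN10 nor TSPAN15 had a signal over 34.8.

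Of the 13 remaining TSPAN genes, 5 were above background on at least 1 array. TSPAN13, a gene that has been linked to cancer of the breast and prostate, read 1798 and 1562, a log2 ratio of -0.21. TSPAN4, a tetraspanin of migrasomes (vesicles left behind by migrating cells), was lower on both of its probe sets, at -0.24 from 540 and 456 and at -0.41 from 160 and 118. TSPAN3 read 831 and 897, a log2 ratio of 0.098, and its 4 expressed probe sets lay between -0.059 and 0.43. TSPAN1, a tetraspanin of epithelial cells, read 103 and 102, a log2 ratio of -0.027. TSPAN31 was the fifth. TSPAN9, a platelet tetraspanin, read 47.1 and 56.1 and TSPAN11, the closest relative of CD151, 58.6 and 30.02, a log2 ratio of -0.72. Both were within background on both arrays. TSPAN11 was the only expressed member at least 1.5-fold lower, a size reached by 3.01% of all expressed genes. With 4 times the pseudocount its log2 ratio was -0.41, short of that size.

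The probe sets of a gene were the internal measure of error. Of 7 expressed members with 2 or more expressed probe sets, TSPAN32 and TSPAN4 had all of them on the same side of 0, and TSPAN3, TSPAN5, TSPAN14, TSPAN31 and CD53 did not. Over all 5494 such genes 54% had all probe sets on 1 side. TSPAN32 was known beforehand for its increase, and its dimmer probe set passed the filter only through the miR-34a array. The agreement of its probe sets therefore supports nothing by itself. The pooled SD between expressed probe sets of a gene was 0.32 for the members and 0.24 over all genes. This SD holds no difference between cultures. Of the 12 members above background on both arrays, 8 lay closer to 0 than the SD over all genes, among them CD53, CD63, CD81, TSPAN3, TSPAN13 and TSPAN17. The exceptions were CD151, TSPAN4, TSPAN14 and TSPAN31, of which TSPAN4 and TSPAN31 lay within the SD of the members, 0.32, by their brightest probe set. The like share of all expressed genes was not counted, so the 8 of 12 are not read as a trait of the family.

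**Figure D4:**
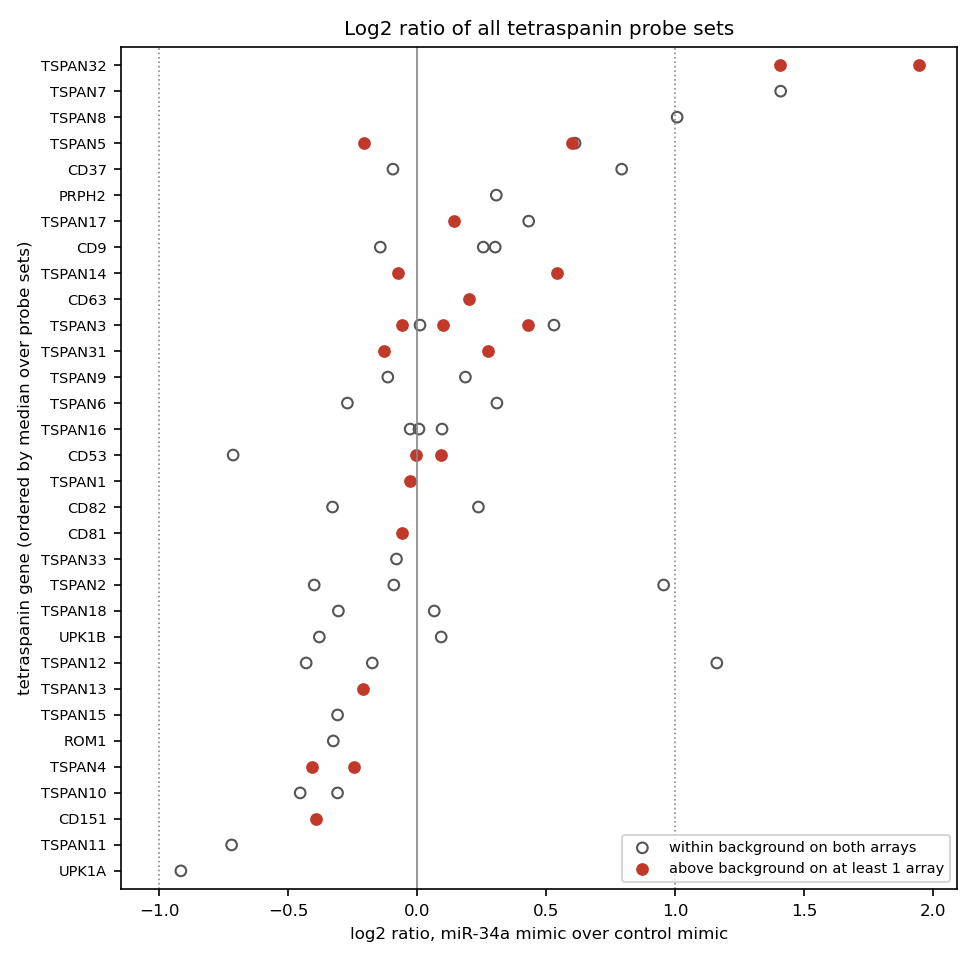
Log2 ratio of miR-34a over control mimic (x axis) of all 60 tetraspanin probe sets, grouped by gene (y axis), with dotted lines at 2-fold. Filled points read above background on at least 1 array; of the 4 genes with a point past 2-fold, TSPAN32 has filled ones, and TSPAN7, TSPAN8 and TSPAN12 have open ones.

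The other 16 genes, TSPAN2, TSPAN6, TSPAN7, TSPAN8, TSPAN10, TSPAN12, TSPAN15, TSPAN16, TSPAN18, TSPAN33, CD9, CD37, UPK1A, UPK1B, PRPH2 and ROM1, were not expressed by this measure. Their 29 probe sets read between 1 and 45.7, within background on both arrays. In 3 of them the log2 ratio passed 2-fold upward and in 0 downward, against 1.95% and 1.99% of the 10466 probe sets of all genes that were not expressed. They were TSPAN7 (7.51 and 45.0), TSPAN8 (15.0 and 45.7) and 1 of 3 probe sets of TSPAN12 (1.10 and 21.2). Ratios of signals this small are not interpreted. The uroplakin tetraspanins of bladder epithelium read at most 28.7 and those of the photoreceptor outer segment at most 43.9. Other markers of these tissues were dim too, though some read higher. None of 4 urothelial markers was above background, and UPK2 and UPK3B were the expressed ones, UPK2 at 52.0 and 67.2. Of 4 photoreceptor markers 3 had a probe set of their own, and PDE6B alone was above background, at 59.2 and 76.5. In all, 13 of the 32 tetraspanin genes (40.6%) were above background on at least 1 array, against 52.8% of all genes with a probe set of their own.

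Genes of tetraspanin partners had no common direction. Of 45 listed, 43 had a probe set of their own and 34 were expressed, 16 above and 18 below 0. Their median log2 ratio was -0.018, where that of all expressed genes is 0. None was at least 2-fold higher, and EPCAM alone was at least 2-fold lower. EPCAM, an epithelial adhesion gene whose protein joins CD9 and TSPAN8 in the membrane, went from 1426 to 654, a log2 ratio of -1.12. ITGA2B, the platelet integrin subunit, was the highest, with a log2 ratio just under 1. Its signals of 163 and 344 were 2.10-fold apart before the pseudocount and the centring, and its second expressed probe set had 1.56. Its partner ITGB3 read 37.5 and 61.6, within background, so the integrin that TSPAN32 and CD151 have been linked to in platelets was measured for 1 subunit of the pair.

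Of the 8 integrin genes listed, 4 were expressed. ITGB1, the beta subunit shared by most tetraspanin-bound integrins, had -0.18 and ITGA5 had -0.096. Those not expressed read within background on every probe set, and their ratios are not interpreted. Among the immunoglobulin superfamily partners IGSF3 was the lowest at -0.74, from 179 and 102. Its other expressed probe sets had -0.37 above background, and -0.23 and 0.091 within it. IGSF8, a direct partner of CD9 and CD81, followed at -0.10 within background. PTGFRN, the other direct partner of CD9 and CD81, had -0.068, from 303 and 290, and CD4 read 54.2 on each array, within background.

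Among proteases and their substrates, ADAM10, the partner of the TspanC8 subgroup, read 752 and 920, a log2 ratio of 0.28. GP6, a platelet collagen receptor shed by ADAM10, was the highest of that list at 0.72, from 750.4 and 1250 (probe set 220336_s_at). NOTCH1, a receptor cleaved by ADAM10, was the lowest at -0.56, from 434 and 292, followed by HBEGF, a growth factor bound by CD9, at -0.29 within background. Among vesicle genes the paralogs RAB27A and RAB27B, which act in vesicle secretion, went in opposite directions, at -0.37 from 2164 and 1685 and at 0.64 from 172 and 277. The syndecan gene SDC4 had -0.64, and SDCBP, which encodes syntenin, the adaptor that binds CD63, had 0.13, while TSG101 of the vesicle budding machinery had 0.14. PMEL, a melanosome protein sorted with CD63, had 0.18 and read within background on both arrays. Among the other receptors CD44, a receptor for hyaluronan, had 0.63 and ADGRG1, an adhesion receptor that binds CD81, 0.42 from a control signal of 60.1 within background. FZD4, whose signalling TSPAN12 assists, had -0.23. The uroplakin partner genes UPK2 and UPK3B had 0.29 and 0.10 and read within background on both arrays.

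**Figure D5:**
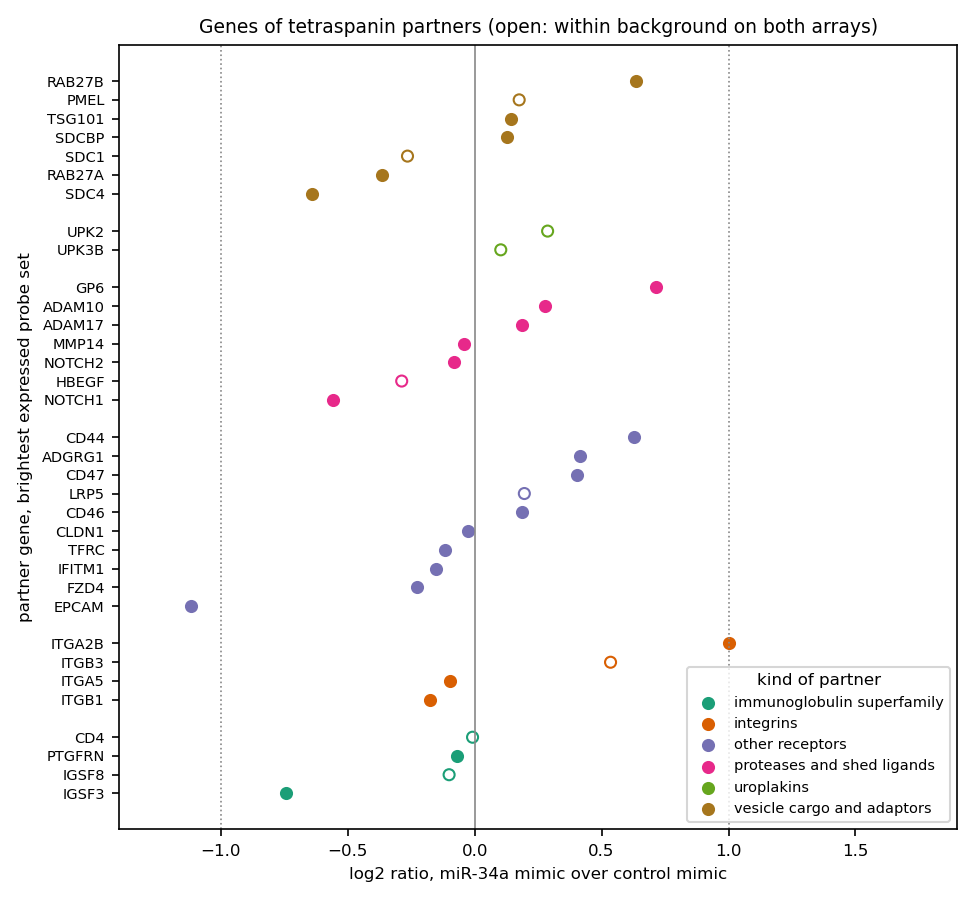
Log2 ratio of miR-34a over control mimic (x axis) of the 34 expressed partner genes (y axis), each by its brightest expressed probe set and coloured by kind of partner, with dotted lines at 2-fold. Open points read within background on both arrays; EPCAM at -1.12 is the only point past 2-fold, and ITGA2B lies just short of it on the other side.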

How the data were processed

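Total RNA of 2 K562 cultures was measured, with 1 array for each mimic. Per the labels' protocols, biotin-labelled cRNA was made from Trizol-extracted RNA by the manufacturer's method. The table the authors deposited holds linear intensity values of probe sets in 2 columns, of which 0 belong to other samples. The sources used here do not give its background correction or scaling. Its lowest value, 1, was held by 3.58% and 3.54% of probe sets.

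The platform annotation named the genes, and only probe sets with 1 symbol were used. All 32 gene IDs were in the RefSeq table (GRCh38.p14), whose start and end positions gave gene order and overlap. From the values, log2(intensity + 14.9) was computed (the pseudocount is their 25th percentile), and the median ratio of expressed genes, 0.0090, was subtracted. With 1 array per group, genes were counted by size and nothing was tested. The members, the 18 lists and the rules were chosen with earlier results of these data known. Every member is named. Of each partner list, the 2 highest, the 2 lowest and genes past 2-fold are named, and SDCBP, TSG101 and CD3D were added after their values were seen. Neighbours are the nearest 2 genes on each side with a probe set. Alternatives changed the pseudocount, filter, centring, normalization, probe sets and threshold. Simulated data with known changes were used to check the calculation. Python 3.11.15, NumPy 2.4.6, pandas 2.3.3, statsmodels 0.14.6 and matplotlib 3.10.9 were used.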

Additional observations from a re-analysis of the deposited data

How the results depend on the processing

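The number of tetraspanin genes at least 2-fold higher was 1 as reported. It was 3 when the filter was set at the 25th percentile or left out, where TSPAN7 and TSPAN8 joined TSPAN32. A filter at the 75th percentile gave 0, and so did leaving out the _s_at, _x_at and _a_at classes (0), since neither setting keeps a probe set of TSPAN32. The number at least 2-fold lower was 0, and 1 (TSPAN11) at a 1.5-fold threshold. The number above 0 was 9, and 15 of 29 and 16 of 32 genes under the 2 looser filters, where the median log2 ratio was 0.0050 and -0.011, in place of 0.094. It was 0.091 without TSPAN32, a setting chosen after seeing the data. TSPAN5 turned from -0.20 to 0.20 as a mean over its expressed probe sets, which include 1 at 0.60. TSPAN32 lay between 1.38 (4 times the pseudocount) and 2.19 (that pseudocount divided by 4), and was above 2-fold in all 9 alternatives that kept it. Of 162 values of single members under the alternatives, 156 moved by less than the pooled SD between probe sets. The alternatives of filter, centring and probe set class kept the same brightest probe set for each member they held and shifted all values alike. Many of the 162 values could thus hardly move, and the count of 156 is a weak measure of stability. No paired analysis was possible because each group has 1 array. No alternative covers differences between cultures, and the dim signals limit what can be read for 19 of the 32 genes.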

Other observations

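The L6 family, proteins of like membrane topology that are not tetraspanins by sequence, was hardly measured in these cells. Of 6 listed genes, 5 had a probe set of their own and 2 were expressed. TM4SF5, a gene of epithelial cells, read 105 and 125, a log2 ratio of 0.22, and TM4SF4 read 53.0 and 45.3, within background on both arrays. The antisense gene TSPAN16-AS1 read 16.9 and 29.1, and TSPAN16 itself read at most 35.5, both within background.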
